A study of Mus musculus with 18 samples.

Results

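The genes described here are 10 surface receptors that mark type 2 conventional dendritic cells (cDC2) or belong to the C-type lectins of DCs. They are Sirpa, Cd101, Cd209a, Clec10a, Mgl2, Clec4a2, Clec4a4, Clec7a, Clec4n and Clec12a, and were taken by symbol from the 54232 genes of the count table through their Ensembl identifiers. All 10 were found, and all 10 were among the 17074 genes that passed the filter on low counts. They were measured by RNA sequencing in 18 libraries of sorted mouse DCs, in 6 groups of 3 libraries. Each group joins a DC subset, CD11b+ single-positive, CD103+ single-positive or CD11b+ CD103+ double-positive (DP), with a tissue, the small intestinal lamina propria (LP) or the intestinal lymph node (LN). Every mouse in the 6 groups was labelled as strain C57BL/6J and genotype CD11a KO, so there was no wild-type library, no other genotype and no age, treatment or time point by which the groups differed in the labels. Values are comparisons between tissues and between subsets of CD11a KO mice only. CD11a pairs with CD18 to form LFA-1, an adhesion receptor of leukocytes. The labels number the libraries but do not say that they came from separate animals, so the p-values measure the spread between these libraries, which may be partly technical.

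Conventional DCs fall into cDC1, which carry CD103 without CD11b in the intestine, and cDC2, which carry CD11b and, in the small intestine, often CD103 as well. SIRPα is the receptor most used to define cDC2. C-type lectin receptors bind sugars on microbes and on host cells. Some of them signal through the kinase Syk, either with a tyrosine motif of their own or through the FcRγ chain, and activate the cell, whereas others carry inhibitory motifs that recruit phosphatases. DCs take up antigen through several of these receptors in the tissue and then travel to the draining node, where maturing DCs generally take up less.

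Total counts lay between 23574292 and 46901985 per library, and no pair of replicates agreed within sampling noise (chi-square per gene between 14.9 and 64.9). Levels are given as counts per 1000000 counted reads (CPM) with library sizes scaled by TMM. Itgal, the gene of CD11a, was read in all libraries, at 17.6 to 26.6 CPM in LP and 6.45 to 23.0 CPM in LN, so the counts per gene do not show the deletion. The tissues came from animals that differed in sex-linked transcripts, since Xist reached 1 CPM in 0 of 9 LP and 9 of 9 LN libraries, and Ddx3y in 9 of 9 and 2 of 9. Tissue and what else differed between these animals cannot be told apart. The sorted labels were read back at the RNA level in LP, where Itgam (CD11b) had means of 61.3 CPM in CD11b+, 68.5 CPM in DP and 0.902 CPM in CD103+ DCs, and Itgae (CD103) had 168.6, 812 and 1337 CPM. In LN the Itgae means were 5.97, 46.1 and 35.4 CPM, and the Itgam means were 20.8, 5.16 and 0.438 CPM. The 5 conventional DC markers (Flt3, Zbtb46, Itgax, H2-Aa and Dpp4) were read in every group. Their sum was lowest in LN CD103+ DCs, at 5294 to 5462 CPM, against 13305 to 13942 CPM in LP CD103+ DCs. From LP to LN in CD103+ DCs the log2 fold changes were -2.18 for Itgax, -1.78 for H2-Aa, -0.30 for Zbtb46, 0.27 for Dpp4 and 0.73 for Flt3.

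Across the 6 groups, 9 of the 10 genes shared a broad order, with the highest mean in LP CD11b+, LP DP or LN CD11b+ DCs and the lowest mean in one of the CD103+ groups. The exception was Clec12a, whose highest mean was in LP CD103+ DCs. Summed over the 10 genes, the level was 4059 ± 699.9 CPM (SD, n = 3) in LP CD11b+, 4413 ± 287 CPM in LP DP and 265.5 ± 30.2 CPM in LP CD103+ DCs. In LN the sum was 1306 ± 294 CPM in CD11b+, 263 ± 17.2 CPM in DP and 144 ± 16.8 CPM in CD103+ DCs. The LP DP sums were thus of the size of the CD11b+ sums, while the LN DP sums lay far below those of LN CD11b+ DCs. In such bulk samples, fewer cells of a type and less RNA per cell cannot be told apart. Compared per kilobase of exon, Cd209a had the highest level of the 10 genes in LP CD11b+ (1304 CPM per kb), LP DP (1346 CPM per kb) and LN CD11b+ DCs (152 CPM per kb). Clec12a led in LP CD103+ DCs, with 35.2 CPM per kb.

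**Figure D1:**
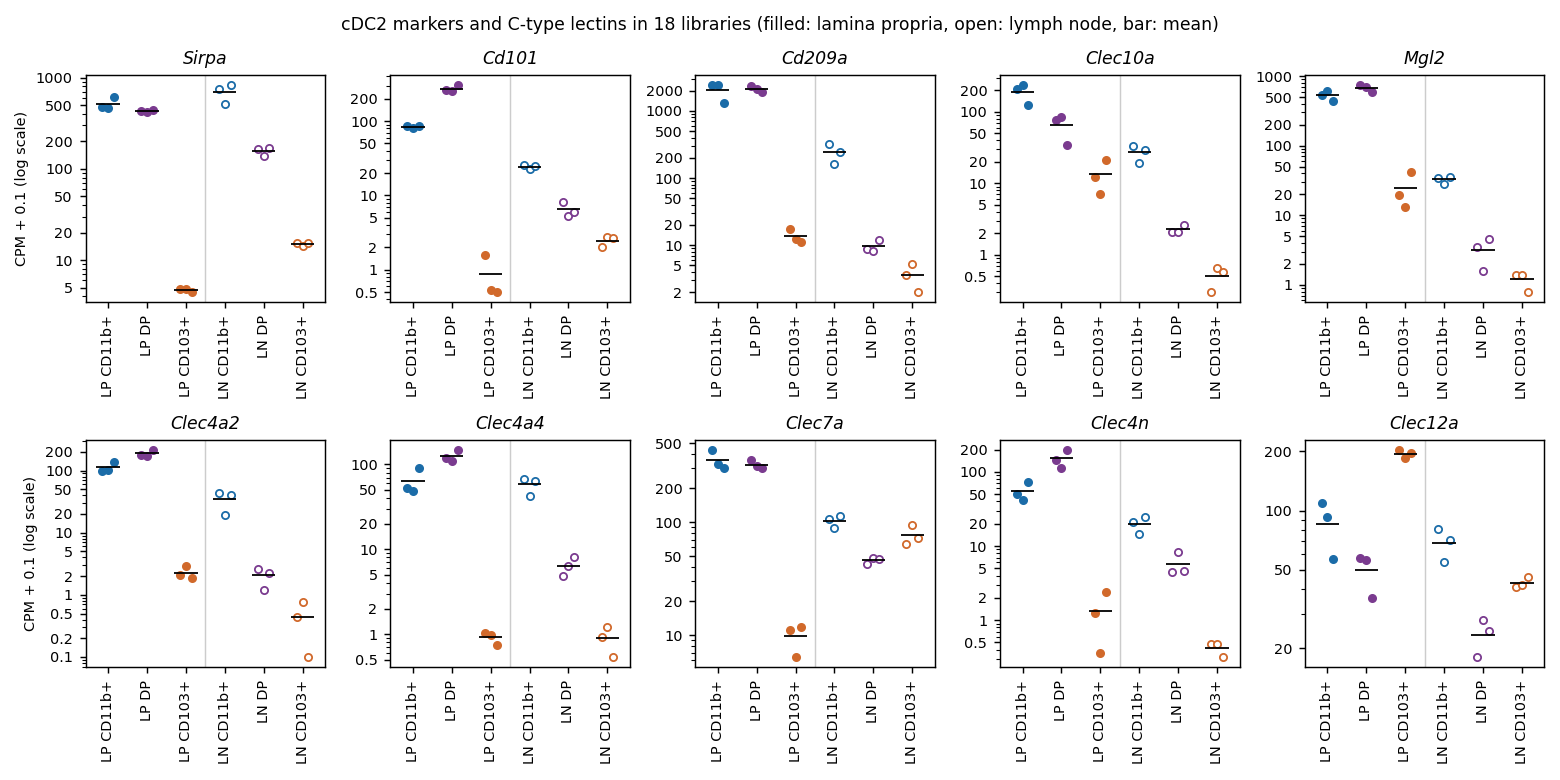
Level of each of the 10 genes (CPM + 0.1, log scale) in the 3 libraries of each group, with filled points for LP, open points for LN and a bar at the group mean. In LP the CD11b+ and DP points lie well above the CD103+ points in 9 panels, and in the Clec12a panel the LP CD103+ points, from 185 to 203 CPM, are the highest.

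A gene was called at an adjusted p under 0.01 (edgeR's quasi-likelihood test, Benjamini-Hochberg over all genes tested) with a fold change over 2. In LP, all 10 genes differed between CD103+ and CD11b+ DCs, where 15.7% of all genes tested were called (5.07% higher and 10.6% lower in CD103+ DCs). Clec12a was higher in CD103+ DCs and the other 9 were lower, and the median log2 fold change was -5.64 over the 10 genes and -0.04 over all genes tested. As a share of the mean in LP CD11b+ DCs, the 9 genes lay between 0.657% (Cd209a) and 6.99% (Clec10a) in LP CD103+ DCs. LP DP against CD103+ DCs also gave 10 calls (13.6% of all genes, 8.10% higher and 5.52% lower), 9 of them higher in DP and Clec12a lower. Between DP and CD11b+ DCs of LP only Cd101, which was higher in DP, and Clec10a, which was lower, were called, where 4.81% of all genes were called (1.14% higher and 3.67% lower). With the replicate letter as a block within tissue, Cd101, Clec4a4 and Clec4n were called higher in DP and Clec10a was not called.

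In LN the DP DCs no longer stood with the CD11b+ DCs. All 10 genes were lower in LN DP than in LN CD11b+ DCs (16.7% of all genes were called, 6.92% higher and 9.82% lower), with levels from 3.95% (Cd209a) to 44.7% (Clec7a) of those in CD11b+ DCs. The corresponding range in LP was 34.4% (Clec10a) to 326% (Cd101). The median log2 fold change of DP over CD11b+ DCs was 0.20 in LP and -2.67 in LN, against 0.00 and -0.08 over all genes. Between LN CD103+ and CD11b+ DCs 8 genes were called, all lower in CD103+ DCs (25.9% of all genes, 10.2% higher and 15.6% lower), and Clec7a and Clec12a were not. Between LN DP and CD103+ DCs 6 genes were called, all higher in DP (6.53% of all genes, 4.69% higher and 1.84% lower). These were Sirpa, Cd101, Cd209a, Clec4a2, Clec4a4 and Clec4n. The calls of Cd209a and Clec4a2 were lost without LN CD103+ replicate 1 or 3 or LN DP replicate 1 or 3 (adjusted p up to 0.037).

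**Figure D2:**
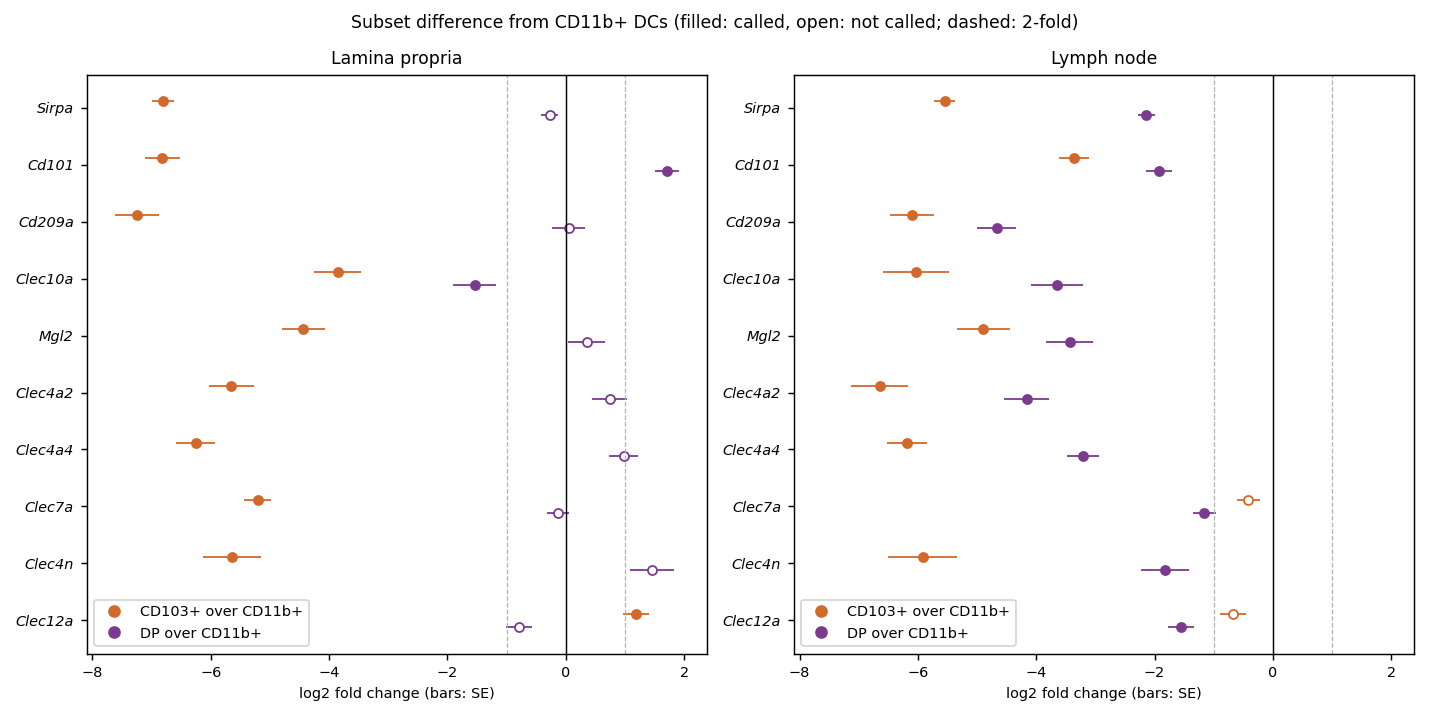
Log2 fold change of CD103+ over CD11b+ DCs and of DP over CD11b+ DCs for each gene, in LP (left) and LN (right), with bars for the SE and filled points for called genes. The DP points lie on both sides of 0 in LP, from -1.54 (Clec10a) to 1.70 (Cd101), and all lie below -1 in LN.

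The tissue comparison gave different answers in the 3 subsets. In CD11b+ DCs 7 of the 10 genes were called, all lower in LN (15.2% of all genes were called, 10.3% higher and 4.93% lower), with a median log2 fold change of -1.74. In DP DCs all 10 were called, all lower in LN (32.1% of all genes, 18.6% higher and 13.6% lower), with a median of -4.83. In CD103+ DCs 8 were called (35.0% of all genes, 19.8% higher and 15.1% lower), 5 lower in LN and 3 higher, and the 3 that rose were Sirpa, Cd101 and Clec7a. The medians over all genes tested were 0.03 in CD11b+, 0.07 in DP and 0.04 in CD103+ DCs. The tissue difference itself differed between subsets for all 10 genes in the F test (31.5% of all genes). For Clec10a this call (adjusted p = 0.0084) was lost in most of the fits with a library left out.

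**Figure D3:**
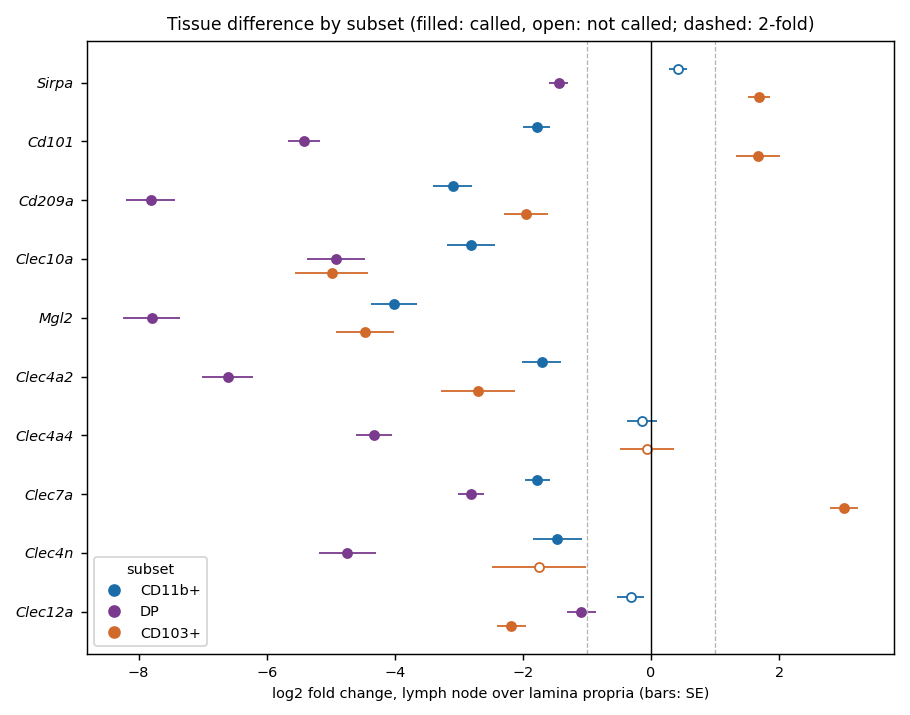
Log2 fold change of LN over LP for each gene in CD11b+, DP and CD103+ DCs, with bars for the SE, filled points for called genes and dashed lines at 2-fold. All DP points lie left of the dashed lines, and the CD103+ points of Sirpa, Cd101 and Clec7a lie to the right.

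Markers of other cell types moved with the tissue. All 7 T cell markers were higher in LN in each subset, and their summed level was 4.18 to 22.0 CPM in LP and 241 to 586 CPM in LN. The 12 maturation genes, Ccr7 among them, summed to 1312 to 3128 CPM in LP, 4938 to 7715 CPM in LN CD11b+ DCs and 26443 to 32369 CPM in LN DP and CD103+ DCs. Of the 11 tested, 9 were called higher in LN in each subset. Over all genes 10.3% were called higher in CD11b+, 18.6% in DP and 19.8% in CD103+ DCs. Cd86 was called lower in LN in CD103+ DCs (log2 fold change -1.91) and Cd80 in DP DCs (-1.07). The 10 macrophage markers summed to 743 to 1607 CPM in LP CD11b+, 323 to 371 CPM in LP DP and 42.7 to 59.1 CPM in LP CD103+ DCs. In LN their sums were 321 to 535, 87.4 to 92.1 and 12.7 to 15.7 CPM in the same order. The macrophage sums were therefore lower in LN within each subset, but not every marker was. In CD11b+ DCs 6 of 10 were called lower (4.93% of all genes) and in DP DCs 7 of 10 (13.6%). In CD103+ DCs 4 were called lower (15.1% of all genes) and 1, Mertk, higher (19.8%), with a log2 fold change of 5.63. Adgre1 was higher in LN CD11b+ DCs under the fold limit (0.82), and Cx3cr1 was not called in any subset. Fcgr1, the gene of CD64, which the study gated out in its C57BL/6 lamina propria DCs (whether also in these CD11a KO cells was not stated), had means of 9.79 CPM in LP CD11b+ and 1.38 CPM in LP DP DCs and was at 0 in all LN CD103+ libraries. The 6 monocyte markers summed to 834 to 1279 CPM in LP CD11b+ and DP DCs and to 61.5 to 521 CPM in LN, most of it from Plac8 in those LP groups (means of 794 CPM in CD11b+ and 864 CPM in DP DCs). Plac8 was called lower in LN in all 3 subsets, but Ly6c2 was called higher in all 3 (log2 fold changes of 2.04 in CD11b+, 5.29 in DP and 5.27 in CD103+ DCs), Ccr2 higher in DP (1.66) and lower in the other subsets, and Chil3 higher in CD11b+ DCs. Vcan was at 0 in LP DP and LN CD103+ DCs. The 5 neutrophil markers summed to at most 76.6 CPM, with Ly6g at 0 in both DP groups and LP CD103+ DCs. The 5 B cell markers summed to 8.01 to 44.4 CPM in LP and 34.3 to 152 CPM in LN, and the 5 plasmacytoid DC markers to 112 to 341 CPM. The 9 cDC1 markers summed to 9910 to 10333 CPM in LP CD103+ and 2131 to 2185 CPM in LN CD103+ DCs. In the other groups they summed to 763 to 1050 CPM in LP CD11b+, 1591 to 1795 CPM in LP DP, 778 to 854 CPM in LN CD11b+ and 1061 to 1263 CPM in LN DP DCs. In CD103+ DCs 8 of the 9 were called, all lower in LN (35.0% of all genes, 15.1% lower). Between LN DP and CD103+ DCs 3 were called, 1 higher and 2 lower in DP (6.53% of all genes). The part of these cells and of maturation in the differences of the 10 genes was not tested.

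Promoter sequences from RefSeq (GRCm38.p6, from 250 bases before to 50 bases after the annotated start) were at hand for 6 of the 10 genes, with 7 entries, and 4 are printed here. Cd209a and Mgl2 had the largest falls from LP to LN in DP DCs, Clec7a moved in opposite directions in the subsets, and Clec12a had its highest level in LP CD103+ DCs. Capitals mark every match, on either strand, to GAGGAA (the core bound by PU.1 and related ETS factors), the composite element of ETS and interferon regulatory factors (ETS-IRF, with its spacer bases free) or TTGCGCAA (a C/EBP palindrome). These 3 were picked from 9 sets of letters searched, after their matches were seen. The Clec12a window follows the RefSeq start and lies inside the gene as GENCODE places it (chr6:129342691-129365303), downstream of the GENCODE start.
Cd209a (chr8:3748935-3749234, minus strand): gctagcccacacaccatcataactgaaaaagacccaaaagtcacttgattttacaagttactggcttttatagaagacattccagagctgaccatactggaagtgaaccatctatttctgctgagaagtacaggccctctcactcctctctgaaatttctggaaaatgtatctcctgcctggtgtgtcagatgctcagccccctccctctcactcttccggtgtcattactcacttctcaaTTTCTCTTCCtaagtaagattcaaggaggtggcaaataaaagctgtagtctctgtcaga
Mgl2 (chr11:70130107-70130406, plus strand): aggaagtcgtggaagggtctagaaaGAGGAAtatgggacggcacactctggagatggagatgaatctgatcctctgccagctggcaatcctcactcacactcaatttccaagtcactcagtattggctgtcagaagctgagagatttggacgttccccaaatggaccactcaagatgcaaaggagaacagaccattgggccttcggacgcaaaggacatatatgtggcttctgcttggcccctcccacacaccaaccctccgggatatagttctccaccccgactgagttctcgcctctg
Clec7a (chr6:129472730-129473029, minus strand): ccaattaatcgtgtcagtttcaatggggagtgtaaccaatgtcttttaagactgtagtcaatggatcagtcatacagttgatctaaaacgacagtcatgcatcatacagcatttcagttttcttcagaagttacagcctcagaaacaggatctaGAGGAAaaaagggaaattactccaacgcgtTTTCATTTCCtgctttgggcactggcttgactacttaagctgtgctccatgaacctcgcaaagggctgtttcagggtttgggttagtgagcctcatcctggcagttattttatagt
Clec12a (chr6:129349994-129350293, plus strand): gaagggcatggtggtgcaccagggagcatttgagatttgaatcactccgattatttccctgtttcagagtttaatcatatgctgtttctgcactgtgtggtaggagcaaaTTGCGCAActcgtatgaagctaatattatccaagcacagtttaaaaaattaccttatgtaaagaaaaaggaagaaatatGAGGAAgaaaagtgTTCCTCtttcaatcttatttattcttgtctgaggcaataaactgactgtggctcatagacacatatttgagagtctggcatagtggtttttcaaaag
GAGGAA was found in 4 of the 6 genes searched (Cd101, Mgl2, Clec7a and Clec12a) and in 28.3% of the 32851 promoters of this length. The ETS-IRF composite was found in Cd209a and Clec7a, against 2.72% of all promoters, and TTGCGCAA in Clec12a alone, against 0.183%. The capitals in Cd209a and the second run in Clec7a are the ETS-IRF composite, which lies on the opposite strand. TGGGAA, GAGGAAGT, CCACACCC and the composite element of AP-1 and IRF had no match in the 6 genes, and TGTGGT matched in Cd101 and Clec12a (16.8% of all promoters). A stricter form of the ETS-IRF composite with a fixed spacer base, whose matches are all matches of the free form too, was found in Clec7a (0.731%). GAGGAAGT likewise contains GAGGAA. A match describes the letters of the window and is no measurement of binding.

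Sirpa (ENSMUSG00000037902, chr2:129592835-129632228 of GRCm38) encodes SIRPα, an inhibitory receptor that binds CD47 on other cells. In LP, Sirpa was at 474, 466 and 619 CPM in the CD11b+ libraries, 429, 415 and 446 CPM in the DP libraries and 4.74, 4.73 and 4.41 CPM in the CD103+ libraries. In LN, the Sirpa levels were 742, 515 and 832 CPM in CD11b+, 165, 139 and 170.4 CPM in DP and 15.1, 14.2 and 15.3 CPM in CD103+ DCs. The 3 LP CD103+ libraries lay below every other library, and LN CD11b+ and LP CD11b+ DCs, the groups with the highest means, overlapped. Sirpa was 112-fold lower in LP CD103+ than in LP CD11b+ DCs, a log2 fold change of -6.81 (SE 0.19, adjusted p = 1.4e-13). Its tissue difference changed sign between subsets. It rose from LP to LN in CD103+ DCs by a log2 fold change of 1.68 (SE 0.17, adjusted p = 1.6e-07), fell in DP DCs (-1.44 (SE 0.14, adjusted p = 2.2e-07)), and in CD11b+ DCs it was not called at 0.42 (SE 0.14, adjusted p = 0.026). Even after the rise, LN CD103+ DCs had 2.14% of the Sirpa level in LN CD11b+ DCs.

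Cd101 (ENSMUSG00000086564, chr3:100993529-101029556) encodes an inhibitory receptor of the immunoglobulin superfamily that is used to mark CD103+ CD11b+ DCs of the intestine. In LP, Cd101 was at 85.2, 80.1 and 87.1 CPM in the CD11b+ libraries, 262, 253 and 307 CPM in the DP libraries and 1.49, 0.430 and 0.408 CPM in the CD103+ libraries. In LN, the Cd101 levels were 25.9, 22.4 and 24.9 CPM in CD11b+, 8.09, 5.27 and 5.89 CPM in DP and 1.91, 2.66 and 2.54 CPM in CD103+ DCs. None of the neighbouring groups in the order of means overlapped, which held for Cd101 alone among the 10 genes. It was the only one of them called higher in LP DP than in LP CD11b+ DCs, with a log2 fold change of 1.70 (SE 0.21, adjusted p = 3.6e-05), although with the replicate block Clec4a4 and Clec4n were called higher too. In LN the order was turned round and DP DCs were lower than CD11b+ DCs, by a log2 fold change of -1.93 (SE 0.23, adjusted p = 3.4e-06). From LP to LN the level fell 42.7-fold in DP DCs and 3.45-fold in CD11b+ DCs. In CD103+ DCs it rose at very low counts, with 10 to 42 reads per LP library and 46 to 63 per LN library (1.67 (SE 0.34, adjusted p = 0.00041)), and the call was lost with only the 6 libraries compared (adjusted p = 0.021).

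Cd209a (ENSMUSG00000031494, chr8:3743397-3748984) encodes a mouse relative of DC-SIGN, a lectin of DCs that binds sugars on microbes. In LP, Cd209a was at 2413, 2450.2 and 1329 CPM in the CD11b+ libraries, 2359.5, 2129.8 and 1903 CPM in the DP libraries and 17.4, 12.1 and 11.1 CPM in the CD103+ libraries. In LN, the Cd209a levels were 320.0, 162 and 241 CPM in CD11b+, 8.59, 8.03 and 11.9 CPM in DP and 3.44, 5.10 and 1.93 CPM in CD103+ DCs. The LP CD11b+ and LP DP libraries overlapped, LN CD11b+ libraries lay apart below them, and the other 3 groups lay lowest, with LP CD103+ and LN DP overlapping. The log2 fold change from LP to LN was -7.81 (SE 0.38, adjusted p = 3.8e-11) in DP DCs, a 225-fold fall. In CD11b+ DCs it was -3.10 (SE 0.30, adjusted p = 6.6e-07) and in CD103+ DCs -1.95 (SE 0.34, adjusted p = 0.00011). Cd209a held a mean of 49.9% of the summed level of the 10 genes in LP CD11b+ DCs and 48.2% in LP DP DCs, but 3.60% in LN DP DCs.

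Clec10a (ENSMUSG00000000318, chr11:70156197-70170834) and Mgl2 (ENSMUSG00000040950, chr11:70130329-70137550) lie next to each other and encode the macrophage galactose-type lectins CD301a and CD301b, which bind galactose and N-acetylgalactosamine. In LP, Clec10a was at 211, 237 and 124 CPM in the CD11b+ libraries, 77.1, 84.5 and 34.7 CPM in the DP libraries and 12.2, 6.95 and 20.8 CPM in the CD103+ libraries. In LN, the Clec10a levels were 32.9, 19.0 and 29.4 CPM in CD11b+, 1.99, 1.99 and 2.52 CPM in DP and 0.207, 0.548 and 0.482 CPM in CD103+ DCs. Clec10a was highest in LP CD11b+ DCs, and the LN CD11b+ libraries overlapped those of LP CD103+. In LP it was lower in DP than in CD11b+ DCs, by a log2 fold change of -1.54 (SE 0.36, adjusted p = 0.008). With the replicate letter as a block within tissue, which the LP libraries bear out as pairs, this call was lost (-1.55, adjusted p = 0.015). The Clec10a call was also lost with only the 6 libraries compared and without any library of the pair of groups other than LP CD11b+ replicate 3 (adjusted p from 0.012 to 0.041).

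In LP, Mgl2 was at 541, 614 and 435 CPM in the CD11b+ libraries, 748, 696 and 584 CPM in the DP libraries and 19.6, 13.1 and 41.7 CPM in the CD103+ libraries. In LN, the Mgl2 levels were 34.8, 28.4 and 35.6 CPM in CD11b+, 3.36, 1.47 and 4.51 CPM in DP and 1.29, 1.31 and 0.701 CPM in CD103+ DCs. Mgl2 did not share the fall of Clec10a between CD11b+ and DP DCs of LP, where its libraries overlapped (0.35 (SE 0.31, adjusted p = 0.55)). Both genes fell from LP to LN in all 3 subsets. For Mgl2 the log2 fold changes were -4.01 (SE 0.36, adjusted p = 2.5e-07) in CD11b+, -7.80 (SE 0.44, adjusted p = 2.2e-10) in DP and -4.47 (SE 0.45, adjusted p = 2.2e-07) in CD103+ DCs. For Clec10a they were -2.81 (SE 0.38, adjusted p = 2.1e-05), -4.92 (SE 0.45, adjusted p = 7.9e-08) and -4.99 (SE 0.57, adjusted p = 8.9e-07) in the same order. They were the only genes of the 10, with Cd209a and Clec4a2, that were called lower in LN in every subset. Of these calls, that of Clec4a2 in CD103+ DCs was lost with only the 6 libraries compared.

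Clec4a2 (ENSMUSG00000030148, chr6:123106428-123143999) and Clec4a4 (ENSMUSG00000059639, chr6:122990367-123024105) encode DCIR1 and DCIR2, lectins with an inhibitory motif in the cytoplasmic tail. In LP, Clec4a2 was at 99.4, 103 and 136 CPM in the CD11b+ libraries, 179, 173 and 213 CPM in the DP libraries and 1.98, 2.80 and 1.75 CPM in the CD103+ libraries. In LN, the Clec4a2 levels were 43.3, 19.4 and 40.7 CPM in CD11b+, 2.54, 1.12 and 2.19 CPM in DP and 0.332, 0.675 and 0 CPM in CD103+ DCs. One LN CD103+ library had no Clec4a2 read, and the other 2 had 8 and 16. From LP to LN Clec4a2 fell by log2 fold changes of -1.71 (SE 0.31, adjusted p = 0.00032) in CD11b+, -6.61 (SE 0.40, adjusted p = 5.4e-10) in DP and -2.70 (SE 0.58, adjusted p = 0.00067) in CD103+ DCs. The last of these rested on 43 to 130 reads per LP library, and its call was lost with only the 6 libraries compared (-2.69, adjusted p = 0.01).

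In LP, Clec4a4 was at 52.2, 48.9 and 89.9 CPM in the CD11b+ libraries, 120.2, 108 and 147 CPM in the DP libraries and 0.920, 0.882 and 0.653 CPM in the CD103+ libraries. In LN, the Clec4a4 levels were 67.0, 42.3 and 64.2 CPM in CD11b+, 4.73, 6.21 and 7.93 CPM in DP and 0.830, 1.10 and 0.438 CPM in CD103+ DCs. Unlike Clec4a2, Clec4a4 kept overlapping levels in the CD11b+ DCs of both tissues (-0.14 (SE 0.24, adjusted p = 0.69)), as it did in CD103+ DCs at 10 to 41 reads per library (-0.07 (SE 0.42, adjusted p = 0.9)). In DP DCs it fell 20.0-fold (-4.32 (SE 0.28, adjusted p = 1.3e-09)). LP DP libraries lay apart above LP CD11b+ libraries for Clec4a4, but the difference missed the limits (0.97 (SE 0.24, adjusted p = 0.012)) and passed them with the replicate block within tissue (1.01, adjusted p = 0.0064).

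Clec12a (ENSMUSG00000053063, chr6:129342691-129365303) encodes another lectin with an inhibitory motif, which senses uric acid crystals of dead cells and is carried by cDC1 as well as myeloid cells. In LP, Clec12a was at 109, 92.2 and 56.6 CPM in the CD11b+ libraries, 57.1, 56.3 and 35.9 CPM in the DP libraries and 203, 185 and 196 CPM in the CD103+ libraries. In LN, the Clec12a levels were 80.6, 54.8 and 70.7 CPM in CD11b+, 17.97, 27.9 and 24.3 CPM in DP and 41.0, 41.6 and 45.9 CPM in CD103+ DCs. LP CD103+ DCs stood apart above all other groups, the 4 groups next in the order overlapped in turn, and LN DP DCs were lowest. Clec12a was 2.27-fold higher in CD103+ than in CD11b+ DCs of LP (1.18 (SE 0.22, adjusted p = 0.0004)), but without LP CD11b+ replicate 3 the log2 fold change was 0.95 and under the fold limit. From LP to LN it fell in CD103+ DCs (-2.18 (SE 0.23, adjusted p = 3e-07)) and in DP DCs (-1.09 (SE 0.23, adjusted p = 0.00052)), the latter under the fold limit without LP DP replicate 1 or 2 or LN DP replicate 1 (-0.99 to -0.94). In CD11b+ DCs the difference was -0.32 (SE 0.22, adjusted p = 0.27). Its level in LN CD103+ DCs was thus no longer above that in LN CD11b+ DCs (-0.68 (SE 0.22, adjusted p = 0.015)). With total counts as the scale, where the median of all genes in this comparison moves by -0.43, it was called lower in LN CD103+ DCs (-1.11, adjusted p = 0.00031).

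Clec7a (ENSMUSG00000079293, chr6:129461591-129472779) encodes Dectin-1, the receptor for fungal β-glucan, which signals through Syk, and the GENCODE annotation used lists it as a polymorphic pseudogene. In LP, Clec7a was at 435, 325 and 301 CPM in the CD11b+ libraries, 353, 312 and 303 CPM in the DP libraries and 11.1, 6.32 and 11.7 CPM in the CD103+ libraries. In LN, the Clec7a levels were 107, 88.2 and 114 CPM in CD11b+, 42.4, 48.6 and 47.2 CPM in DP and 64.5, 94.5 and 72.8 CPM in CD103+ DCs. The 2 tissues did not overlap in any subset, and the direction was not the same in all of them. LN was lower than LP in CD11b+ DCs (-1.78 (SE 0.20, adjusted p = 2.4e-06)) and in DP DCs (-2.81 (SE 0.20, adjusted p = 4.7e-09)), but 8.07-fold higher in CD103+ DCs (3.01 (SE 0.21, adjusted p = 2.5e-09)). CD103+ DCs had 2.74% of the Clec7a level of CD11b+ DCs in LP and 74.9% in LN. DP DCs went the other way, from 91.2% of the CD11b+ level in LP, where the libraries overlapped, to 44.7% in LN, where they were called lower (-1.16 (SE 0.19, adjusted p = 0.00012)). LN CD103+ libraries overlapped those of LN CD11b+ and lay above all LN DP libraries, although the difference from DP was under the fold limit (-0.75 (SE 0.19, adjusted p = 0.0094)). Among the 10 genes only Clec7a and Clec12a had a mean in LN CD103+ DCs above that in LN DP DCs.

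Clec4n (ENSMUSG00000023349, chr6:123229843-123247021) encodes Dectin-2, a receptor for fungal mannan that depends on the FcRγ chain. In LP, Clec4n was at 49.5, 42.2 and 73.8 CPM in the CD11b+ libraries, 145, 113 and 196 CPM in the DP libraries and 1.13, 0.258 and 2.28 CPM in the CD103+ libraries. In LN, the Clec4n levels were 20.8, 14.6 and 24.4 CPM in CD11b+, 4.30, 8.10 and 4.47 CPM in DP and 0.373, 0.380 and 0.219 CPM in CD103+ DCs. LP DP libraries were highest and lay apart above LP CD11b+ libraries, a difference of 1.46 (SE 0.38, adjusted p = 0.015) that missed the limit on p and passed it with the replicate block within tissue (adjusted p = 0.0034). From LP to LN Clec4n fell in CD11b+ DCs (-1.47 (SE 0.38, adjusted p = 0.0058)) and DP DCs (-4.74 (SE 0.44, adjusted p = 9.1e-08)). The call in CD11b+ DCs did not hold with DESeq2 (adjusted p = 0.015), with total counts (0.01), or without LP CD11b+ replicate 1 or 3 or LN CD11b+ replicate 1 or 2 (adjusted p from 0.011 to 0.033). In CD103+ DCs Clec4n was not called at 5 to 9 reads per LN library (-1.75 (SE 0.73, adjusted p = 0.048)). There it was called lower in LN with DESeq2 (adjusted p = 0.0056) and without LP CD103+ replicate 2 (-2.38, adjusted p = 0.0022). The other Dectin, Clec7a, had 1554 to 2241 reads in the same LN CD103+ libraries.

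Replicate 3 lay apart from replicates 1 and 2 for several of the 10 genes, by most in LP CD11b+ DCs. In LP CD11b+ DCs, Cd209a was at 1329 CPM in replicate 3 and at 2413 and 2450.2 CPM in the others, and Clec12a was at 56.6 CPM against 92.2 and 109 CPM. Clec4a4 went the other way, at 89.9 CPM against 48.9 and 52.2 CPM. The median distance of replicate 3 from the mean of the other two was 0.56 on the log2 scale over the 10 genes in LP CD11b+ DCs, against 0.14 over all genes of at least 10 CPM. In LP DP and CD103+ DCs the medians over the 10 genes were 0.29 and 0.45, against 0.11 and 0.13. In LN they were 0.20 in CD11b+, 0.30 in DP and 0.35 in CD103+ DCs (9 genes, without Clec4a2), against 0.13, 0.15 and 0.17. In LN CD11b+ DCs all 10 genes were higher in replicate 3 than the mean of replicates 1 and 2 (Cd209a by only 1.96e-05 on the log2 scale). There replicate 2 was the lowest library for all 10 genes. Replicate 1 lay above replicate 3 for several of them, such as Cd209a (320.0 against 241 CPM). LP CD11b+ replicate 3 had 311 CPM of the macrophage gene C1qa against 113 and 163 CPM, and 293 CPM of Itgae against 92.1 and 121 CPM. Without it 4 genes were called between LP DP and CD11b+ DCs in place of 2, and without any other of those 6 libraries 1 was called. The part of those cells in the replicate's values was not tested.

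Ratios were formed within pairs of lectin genes, the closely placed Mgl2 and Clec10a and Clec4a4 and Clec4a2, and the Dectin genes Clec4n and Clec7a. Per exon length, Mgl2 over Clec10a was 3.56, 3.58 and 4.88 in LP CD11b+ DCs and 13.4, 11.4 and 23.3 in LP DP DCs. The DP libraries all lay above the CD11b+ libraries, with a 3.85-fold difference. In LN CD11b+ DCs the ratio was 1.47, 2.06 and 1.68, below every LP CD11b+ library. Clec4a4 over Clec4a2 was 1.98, 1.80 and 2.49 in LP CD11b+ DCs and 5.83, 8.23 and 5.95 in LN CD11b+ DCs, a 3.18-fold difference with no overlap. For Clec4n over Clec7a, the ratio was 0.211, 0.241 and 0.456 in LP CD11b+ and 0.763, 0.675 and 1.20 in LP DP DCs, again without overlap. The ratio Clec4a4 over Clec4a2 overlapped between LP DP and LP CD11b+ DCs. The exact permutation test (two-sided) gave p = 0.1 for each of the 4 comparisons without overlap and p = 0.2 for the fifth. With 3 libraries against 3, 0.1 is the smallest p possible, and after Benjamini-Hochberg adjustment over the 5 comparisons it was 0.125. Reads of the closely placed pairs are not fully separable, since 6.56% of the 75-base windows of Mgl2 and 4.44% of those of Clec10a occur in the other gene, and 12.7% of the Clec4a4 windows occur in Clec4a2. The exons of the 10 genes overlap no other annotated gene.

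**Figure D4:**
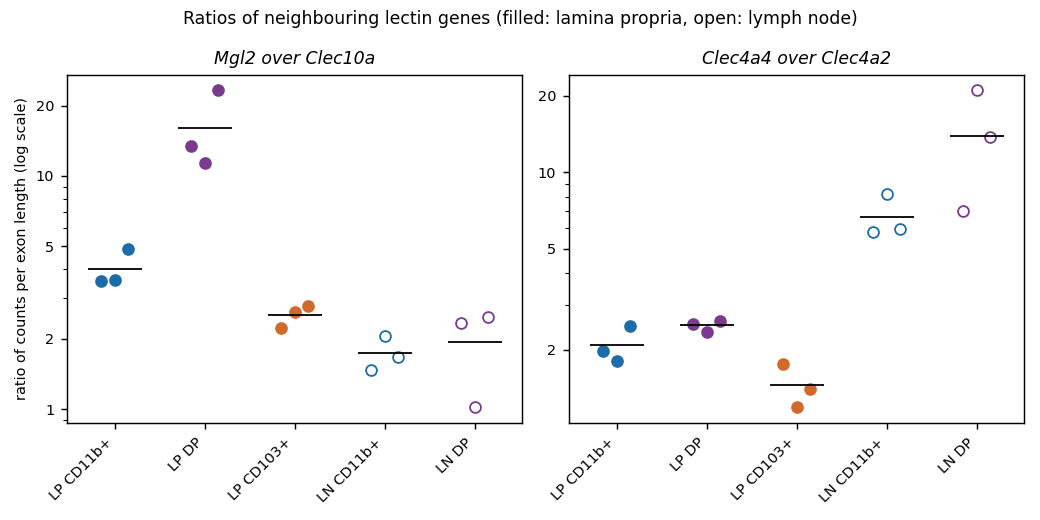
Ratio of counts per exon length (log scale) of Mgl2 over Clec10a and of Clec4a4 over Clec4a2 in single libraries, with bars at the group means and LN CD103+ DCs left out because Clec10a and Clec4a2 had at most 16 reads there. The LP DP points of Mgl2 over Clec10a, from 11.4 to 23.3, lie above all others, and the LN points of Clec4a4 over Clec4a2, from 5.83 upward, lie above all LP points.

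Over the 18 libraries, which share subset and tissue, Pearson's r of log2 CPM among the 9 genes other than Clec12a was between 0.55 and 0.99 over 36 pairs, with a median of 0.86. Against Clec12a it was between -0.38 and 0.43. The genes most like each of the 10 outside the set, with a mean of at least 10 CPM, were partly lectin or myeloid receptors. For Sirpa the closest was Fcer1g (r = 0.99), the gene of the FcRγ chain, for Cd209a Lta4h (0.99) and then the lectin gene Clec4b1 (0.99), and for Clec4n Cd33 (0.99), an inhibitory receptor of the Siglec family. Clec7a was most like Cd69 (0.98) and Lgals8 (0.96), Clec4a4 most like Cd300ld (0.99), and Clec4a2 most like Tnfrsf13b (0.99). The closest genes to Clec10a, Mgl2 and Clec12a were Slamf9 (0.99), B430306N03Rik (0.98) and Spcs2 (0.95).

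Of 25 other C-type lectin genes, 22 were tested. From LP to LN, 12 were called in CD11b+ DCs (3 higher, 9 lower, median log2 fold change -1.27), where 15.2% of all genes were called. In DP DCs 13 were called (4 higher, 9 lower, median -1.26), against 32.1% of all genes, and in CD103+ DCs 9 (3 higher, 6 lower, median 0.01), against 35.0%. Clec4b1 fell in all 3 subsets, with log2 fold changes of -1.95, -5.90 and -1.67 in CD11b+, DP and CD103+ DCs. Clec4b2, Clec1b and Clec5a, which encodes an activating receptor of myeloid cells, were also called lower in all 3. In the DC-SIGN family, Cd209b was highest in LP DP DCs at 369 ± 67.5 CPM and fell there by -4.55 (SE 0.36, adjusted p = 1.5e-08), while in CD11b+ DCs it was at 54.2 ± 14.1 CPM in LP and 71.3 ± 11.9 CPM in LN. Ly75, the gene of the uptake receptor DEC-205, went the other way and rose in CD11b+ (2.50 (SE 0.18, adjusted p = 2.2e-08)) and DP DCs (1.59 (SE 0.16, adjusted p = 3.3e-07)). Mrc1, the gene of the mannose receptor, shared the split of Clec7a between CD11b+ and CD103+ DCs. It fell in CD11b+ DCs (-3.24 (SE 0.41, adjusted p = 1.2e-05)) and rose in CD103+ DCs (2.35 (SE 0.46, adjusted p = 0.0003)), the latter from 0.672, 0.151 and 0.612 to 2.28, 2.07 and 2.63 CPM. In DP DCs, where Clec7a was called lower, Mrc1 was not called (-1.39 (SE 0.45, adjusted p = 0.013)). Clec9a, a cDC1 receptor for dead cells, was highest in LP CD103+ DCs like Clec12a, at 258 ± 40.9 CPM, and fell in LN to 40.2 ± 6.99 CPM. Cd207 (langerin) had no read in LP CD11b+ and LP DP DCs and 1.13, 2.13 and 2.09 CPM in LN DP DCs, at least 50.2-fold higher with 3 reads over the LP group as the floor. Clec4e (Mincle) had no read in either CD103+ group, and Clec4f none in any library.

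**Figure D5:**
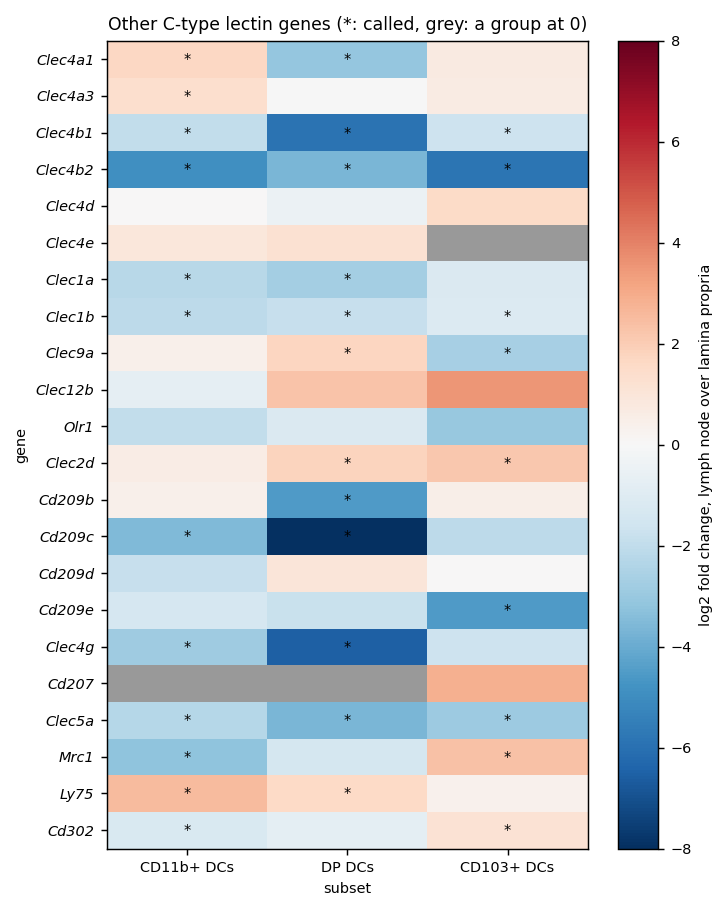
Log2 fold change of LN over LP (colour) for 22 other C-type lectin genes in CD11b+, DP and CD103+ DCs, with stars for called genes and grey where a group had no read. Clec4b1, Clec4b2, Clec1b and Clec5a carry a star and a negative colour in all 3 columns, and Mrc1 is negative in CD11b+ and positive in CD103+ DCs.

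Of 16 genes that act with these receptors, such as Syk, Card9, phosphatases and CD47, all were tested. The tissue comparison called 1 lower in CD11b+ DCs (against 15.2% of all genes in either direction), 4 lower and 1 higher in DP DCs (32.1%), and 5 lower and 3 higher in CD103+ DCs (35.0%), with medians of -0.24, -0.37 and -0.15. Card9, the adaptor below Syk, was the only one called lower in LN, with a fold change over 2, in all 3 subsets, with log2 fold changes of -1.50 in CD11b+, -1.72 in DP and -1.04 in CD103+ DCs. Cd47, the ligand of SIRPα, rose in LN CD103+ (1.39 (SE 0.08, adjusted p = 1.1e-10)) and DP DCs (1.17 (SE 0.08, adjusted p = 1.2e-09)). In LP, Fcer1g was at 587, 628 and 505 CPM in CD11b+ and 11.1, 9.91 and 8.81 CPM in CD103+ DCs, a log2 fold change of -5.85 (SE 0.13, adjusted p = 1.8e-14). Syk (-1.80) and Tyrobp (-3.04), the gene of the adaptor DAP12, were also called lower in LP CD103+ than in LP CD11b+ DCs. Fcer1g rose from LP to LN in CD103+ DCs (1.97 (SE 0.12, adjusted p = 2.6e-10)), as Clec7a did, whereas Syk was not called there (-0.81 (SE 0.13, adjusted p = 3e-05)).

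Of 9 genes tied to the cDC2 lineage, 6 were called lower and 1 higher in LP CD103+ than in LP CD11b+ DCs. Over all genes 10.6% were called lower and 5.07% higher there. The higher one was Esam (1.57), and Notch2 (0.07) and Rbpj (0.32) were not called. Irf4 is a factor needed for cDC2 of the intestine. In LP, Irf4 was at 5.52 ± 0.459 CPM in CD103+ and 62.7 ± 10.6 CPM in CD11b+ DCs (-3.51 (SE 0.18, adjusted p = 1.6e-10)). It rose from LP to LN in CD103+ DCs (2.27 (SE 0.17, adjusted p = 5.2e-09)) and was not called in CD11b+ (-0.62 (SE 0.16, adjusted p = 0.0045)) or DP DCs (-0.73 (SE 0.16, adjusted p = 0.00071)). In the tissue comparison 3 of the 9 genes were called higher and 1 lower in CD11b+ DCs (15.2% of all genes in either direction), 3 higher and 2 lower in DP DCs (32.1%), and 5 higher in CD103+ DCs (35.0%). Esam, Dtx1 and Cd4 were the 3 that rose in every subset, for Esam by 2.97 in CD11b+, 3.57 in DP and 2.89 in CD103+ DCs on the log2 scale. Cd4 is also a T cell gene, and the T cell markers were higher in LN as given above. Itgam fell in CD11b+ (-1.56 (SE 0.27, adjusted p = 0.00025)) and DP DCs (-3.73 (SE 0.30, adjusted p = 1.6e-08)). In CD103+ DCs Itgam was not called (-1.01 (SE 0.45, adjusted p = 0.061)).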

How the data were processed

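The authors deposited raw counts of reads per gene for the 18 libraries, with no normalization, listed by Ensembl identifier. Per the labels, the libraries were made with the Smart-seq v4 kit, and the submitters' processing notes name FastQC 0.11.7, STAR 2.6 and GRCm38. The study's methods describe DCs of C57BL/6 lamina propria and thoracic duct lymph, counted by STAR without regard to strand and from unique alignments, so reads shared by near-identical genes may be lost. Whether this holds for the CD11a KO libraries, and how their CD103+ and lymph node cells were sorted, was not given in any source used here. Of 54232 identifiers, 54079 were matched to a symbol, and positions, exon lengths and shared 75-base windows came from GENCODE vM21.

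Counts were tested with edgeR 4.0.16 (R 4.3.3), with TMM scaling, filterByExpr and 1 quasi-likelihood fit of the 6 group means. Calls required an adjusted p (Benjamini-Hochberg, 17074 genes) under 0.01 and a fold change over 2, and the F test an adjusted p under 0.01. SEs were derived from the F statistic. On simulated counts with known changes the fit was tested first. Ratios were compared with exact permutation tests (scipy 1.17.1), and correlations used log2(CPM + 0.5). As alternatives, the scaling was changed to total counts or the size factors of DESeq2, the filter was dropped or raised to 100 counts in 3 libraries, DESeq2 1.42.0 replaced edgeR, the fit was restricted to the 6 libraries compared, the limit on p was raised to 0.05, the replicate letter was added as a block, and each library was left out once. The genes named were the 10 receptor genes, members of the gene lists, and, of the 3 genes most correlated with each of the 10, those given in the text. The gene most correlated with Cd101 is not reported here. The 10 genes and the lists were chosen with earlier results of these data known.

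The labels letter the replicates A, B and C. Over 8674 genes, same-letter libraries deviated together from their group means in all 3 pairs of LP subsets (r from 0.117 to 0.363) and in LN CD11b+ and DP DCs (0.111 to 0.367), so the letters were taken to pair these. They did not pair the other LN subsets or the tissues.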

Additional observations from a re-analysis of the deposited data

Results flagged for a closer look

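All 10 genes had a tissue difference that was not the same in the 3 subsets, by the F test of edgeR's quasi-likelihood fit with Benjamini-Hochberg adjustment over all genes. The adjusted p was 9.8e-10 for Clec7a, which was lower in LN in CD11b+ and DP DCs and higher in CD103+ DCs. Sirpa (adjusted p = 3.9e-08) and Cd101 (4e-09) likewise had opposite signs in DP and CD103+ DCs. Cd209a (8.9e-08), Clec4a2 (1.7e-06), Mgl2 (3.4e-05) and Clec4n (0.00039) had negative log2 fold changes in all 3 subsets, with the largest fall in DP DCs. Clec4a4 (2.3e-07) was called lower in DP DCs alone, and Clec12a (0.00045) had its largest fall in CD103+ DCs. For Clec10a (0.0084) the difference between subsets was the least certain, with log2 fold changes of -2.81 in CD11b+, -4.92 in DP and -4.99 in CD103+ DCs. Its F test call was lost in most of the fits with a library left out (adjusted p from 0.011 to 0.023 in these).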

How the results depend on the processing

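The number of the 10 genes called stayed within 1.5 times the reported number in 150 of 157 values, and the 7 others all concerned LP DP against CD11b+ DCs, where 2 genes were called. There the number was 1 with only the 6 libraries compared, and between 1 and 4 with a library left out, 4 of them without LP CD11b+ replicate 3. The number over all genes in that comparison, 821, became 506 with only the 6 libraries and 1289 at an adjusted p under 0.05. Of the fold changes and F tests of single genes, 1501 values kept their direction and side of the threshold, 44 lost a call, 16 gained one and 8 changed sign, the last among values with no call. These 8 were Clec4a4 in CD11b+ DCs between tissues without LP CD11b+ replicate 3 (0.19) or LN CD11b+ replicate 2 (0.04, -0.30 to 0.19 with a library left out), Clec4a4 in CD103+ DCs without LP CD103+ replicate 1 (0.000163) or LN CD103+ replicate 3 (0.19, in a range of -0.40 to 0.19), and Cd209a between LP DP and CD11b+ DCs with total counts (-0.0138), without LP CD11b+ replicate 3 (-0.19) or without LP DP replicate 1 (-0.03). The eighth was Clec7a in the same comparison without LP CD11b+ replicate 1 (0.045, in a range of -0.24 to 0.045). The cause was not tested.

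With the replicate letter as a block over all libraries, the pairing left the number of calls between LP DP and CD11b+ DCs at 2, but Clec10a lost its call (adjusted p = 0.012) and Clec4n gained one (0.0077), and the F test of Clec10a was lost (0.015). The block within tissue changed the calls of Clec10a, Clec4a4 and Clec4n given above and no other call of the 10 genes. Total counts moved the median of all genes by up to -0.43 on the log2 scale (LN CD103+ against CD11b+ DCs) and by -0.37 in LN DP against CD11b+ DCs, and by 0.14 in CD11b+, -0.21 in CD103+ and -0.17 in DP DCs between tissues. No called gene of the 10 changed direction under any scaling. Depth limits the precision of genes at a few reads per library, such as Clec4n, Clec10a and Clec4a2 in LN CD103+ DCs. Between LN DP and CD103+ DCs, Clec10a was not called (adjusted p = 0.015) but was with DESeq2 (5.2e-05), without the filter or with only the 6 libraries compared (0.0025 each), and Clec4a2 lost its call with only those 6 (0.033).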
